A study of Homo sapiens with 6 samples.

Results

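The SMN complex assembles the protein ring of the spliceosomal small nuclear ribonucleoproteins (snRNPs), and the values described here are those of the mRNAs of its subunits in a human myeloma cell line. The members were taken by name from the gene counts: GEMIN5, which was chosen because of its large loss after incubation with IRE1, and the genes GEMIN2, GEMIN4, GEMIN6, GEMIN7, GEMIN8, SMN1, SMN2, DDX20 and STRAP. These are 10 of the 57905 genes in the count files, and all 10 were among the 14398 genes that passed the filter on low counts. Because the drop of GEMIN5 is the reason it was chosen, its values are given as a description and without a test.

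The question of the study was which mRNAs are cut by IRE1, a sensor of the unfolded protein response whose cytoplasmic part is an endoribonuclease. Total RNA (5 μg) of H929, an established human multiple myeloma line, was kept for 1 h at 37 °C in a cleavage buffer. In 3 samples the buffer held recombinant human IRE1 (2 μg, residues 467 to 977 of the protein), and in 3 control samples it held no enzyme. All 6 reactions were stopped at 95 °C for 5 min, poly(A)-containing mRNA was purified, and a stranded library was sequenced from each. A cut mRNA keeps its poly(A) tail only on the 3′ fragment, so a gene count, which adds up both sides of a cut, can fall only in part. The samples come from 1 cell line, with no change of genotype, and the enzyme met purified RNA, without the proteins and membranes of a cell. The study calls the samples biological replicates. Apart from that wording, no source used here says how separate the cultures were, so the spread may in part be technical. Each library had a sequencing lane of its own, and lane and sample cannot be told apart.

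The SMN complex works in the cytoplasm. GEMIN5 recognises the newly exported small nuclear RNA, GEMIN2 holds the Sm proteins, and the SMN protein, on which the other subunits are built, brings the pieces together until the Sm ring is closed on the RNA. Loss of SMN1 is known as the cause of spinal muscular atrophy, in which the near-identical gene SMN2 supplies only part of the missing protein. IRE1 is known to cut short hairpins whose loop holds CTGCAG or close variants of it, between the third base, a G, and the C that follows.

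The sequences that matter here are thus the stretches around this motif in the member mRNAs. They were read from the canonical transcripts of GENCODE on GRCh37, on the mRNA strand alone, with CTGCAG as the exact motif and CNGCAG as the looser one (every CTGCAG also matches CNGCAG). Each match was folded with 15 bases on either side and counted as lying in a loop when the third base was unpaired in a hairpin loop (5 to 11 bases, with 3 or more closing pairs). The lines below show, with the motif in capitals, the GEMIN5 match that folded into such a loop, the first exact match of GEMIN5, which did not, and the exact match of GEMIN4 in a loop, a member that did not fall. For comparison, the matches at the known cut sites of XBP1 are shown, both in a loop. A CAGCAG that overlaps the lower of these also folded into a loop.
GEMIN5, 3′ UTR, exon 28, chr5:154267498-154267527, minus strand: cagaactaacacCTGCAGagtgttggtcat
GEMIN5, coding, exon 1, chr5:154317623-154317652, minus strand: gtactgcgcccgCTGCAGcgatgccgtgcc
GEMIN4, 3′ UTR, exon 2, chr17:648053-648082, minus strand: aacatggcgggtCTGCAGaagatcagcagc
XBP1, coding, exon 4, chr22:29192126-29192155, minus strand: ggtctgctgagtCCGCAGcactcagactac
XBP1, coding, exon 4, chr22:29192100-29192129, minus strand: ctacgtgcacctCTGCAGcaggtgcaggcc

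The depth on genes was 19615715 to 25678499 counts per library. Counts were scaled by the TMM method of edgeR, which takes most genes as unchanged, and are given as normalized counts at the scale of the mean library. Such a level is relative to the other genes, and no absolute amount of an mRNA was measured. A gene said to rise or fall with IRE1 does so only in this relative sense. TMM gave factors of 1.02 to 1.03 to the controls, 0.947 to IRE1-treated replicate 1, 0.980 to replicate 2 and 0.996 to replicate 3. IRE1-treated replicate 1 stood apart: the chi-square per gene between it and the other IRE1-treated libraries was 6.64 and 10.2, against 3.22 between those libraries and 2.13 to 2.90 among the controls. Results are therefore also given without it. All 8 plasma cell markers had at least 408 counts in every library. Of 10 markers of other cell types, 9 had at most 34 counts in every library, and CD3E, a T cell receptor subunit, had 890 to 1063, whereas CD3D had 0 or 1. In bulk RNA such as this, the level of a marker does not tell fewer cells with an mRNA from less of it per cell. This limit concerns the levels and not the effect of IRE1, which was added to RNA already purified.

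GEMIN5 (ENSG00000082516, chr5:154266971-154317771 on GRCh37, minus strand) encodes the large subunit that binds the small nuclear RNA. In the controls it had 1119, 1063 and 1005 normalized counts, from 1326, 1104 and 978 raw counts. In the IRE1-treated libraries it had 599.8, 579 and 584 normalized counts, from 501, 549 and 603 raw counts. Every IRE1-treated library was far below every control. Over all tested genes, 20.0% had every treated library below every control. The treated libraries of GEMIN5 lay closer together than its controls. The mean went from 1062 ± 57.2 (SD, n = 3) to 588 ± 10.8 (SD, n = 3), which left 55.3% of the control mean, with 56.5, 54.5 and 55.0% in the single treated libraries.

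On the log2 scale the difference of GEMIN5 was -0.86 (standard error 0.0635), and it was -0.87 without IRE1-treated replicate 1. From the lowest upwards this was rank 86 of the 14398 tested genes and rank 15 of the 10293 genes whose mean reached 100 normalized counts. The counting error of a single GEMIN5 count was 2.75 to 4.47%. For comparison, the substrates known before the study kept 39.0% (BLOC1S1) and 93.8% (XBP1, adjusted p = 0.143) of their control mean at the gene level. The retained level of GEMIN5 lay between them, but these levels do not rank cleavage, since a gene count depends on where the cut lies. The XBP1 matches printed above lie at 30.5 and 31.9% of its transcript. The paper scored XBP1 by its exons. All treated libraries of XBP1 were below all controls, and its adjusted p was under 0.05 in 5 of 16 alternative fits. In 1 of these the dependence of every library on transcript length and GC content was taken out. There XBP1 was at -0.16 on the log2 scale (adjusted p = 0.0120) and BLOC1S1 at -1.52.

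**Figure D1:**
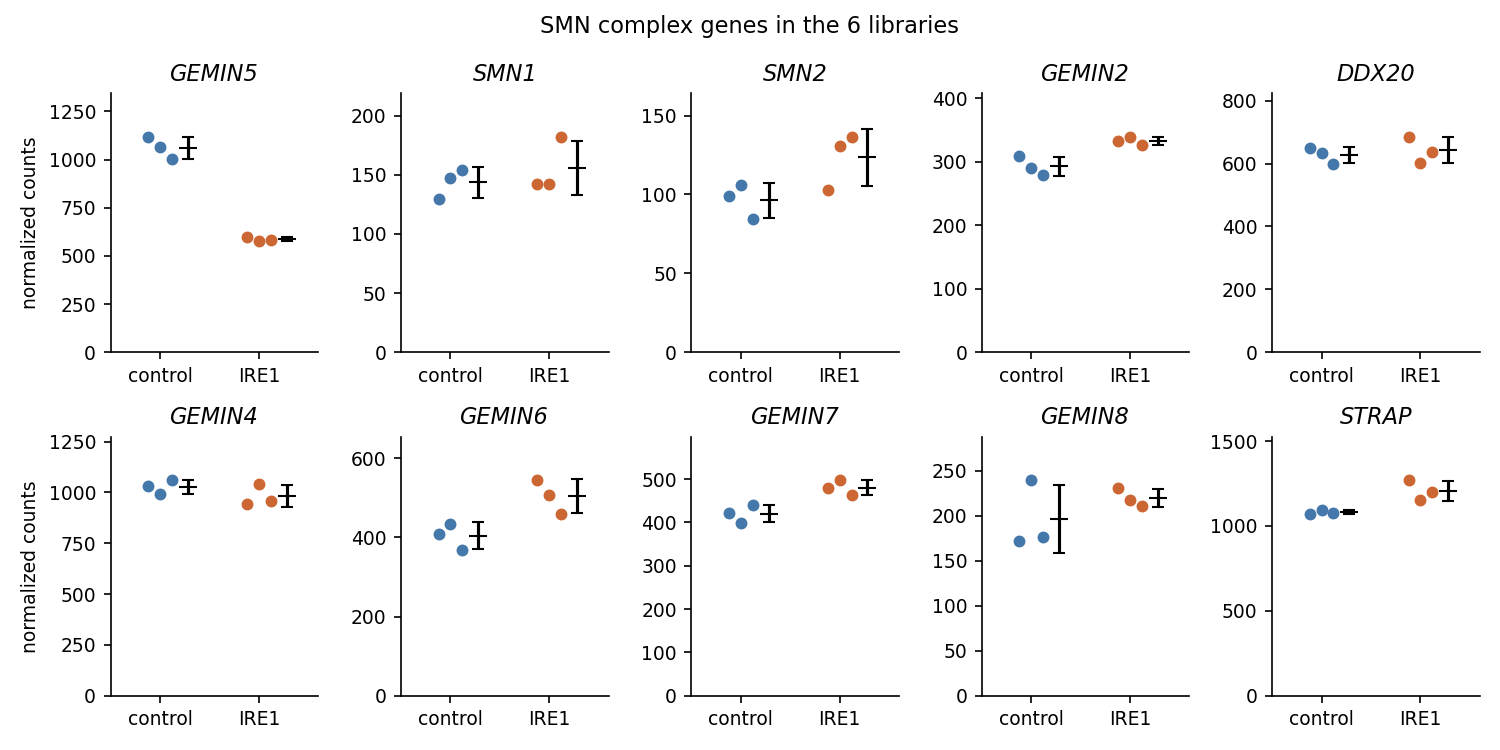
Normalized counts (y axis, from 0) of the 10 SMN complex genes in the 3 control and 3 IRE1-treated libraries; each dot is a library, in the order of its replicate number, and the bar is the mean with the SD. GEMIN5 lies at 1005 to 1119 in the controls and at 579 to 599.8 after IRE1, whereas the other 9 genes keep at least 95.5% of their control mean.

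The SMN proteins are the core of the complex. SMN1 (chr5:70220857-70249769) had 129, 147 and 154 normalized counts in the controls and 142, 142 and 182 with IRE1. SMN2 (chr5:69345465-69374349) had 98.7, 106 and 84.2 in the controls and 103, 131 and 137 with IRE1. For both genes the groups overlapped. The log2 fold change was 0.13 for SMN1 (95% interval -0.15 to 0.41, adjusted p = 0.526). It was 0.36 for SMN2 (95% interval 0.05 to 0.67, adjusted p = 0.0850). Without IRE1-treated replicate 1, SMN2 was at 0.47 and passed the threshold of 0.05 (adjusted p = 0.0187).

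These 2 genes share most of their sequence. Their canonical transcripts are 1482 bases each and differ by 2 substitutions, and 89.2% of the 76-base windows of SMN1 are also present in SMN2. Taken singly, a read from such a window has no single place in the genome, and only the remaining 10.8% of windows separate the genes. The reads were paired, so a read can also be placed by its mate, and the share of separable pairs was not computed. Both counts are uncertain. Summed into 1 row, they had 228, 253 and 238 normalized counts in the controls and 245, 273 and 319 with IRE1, with overlap. The sum was at 0.23 on the log2 scale (adjusted p = 0.143, standard error 0.107). SMN1 made up 59.6% of the pair in the controls and 55.7% with IRE1.

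GEMIN2 (chr14:39583489-39606177), whose protein is bound by SMN and grips the Sm proteins before the ring closes, had 309, 289.7 and 279 normalized counts in the controls and 333, 339.6 and 326 with IRE1. All IRE1-treated libraries were above all controls, by a narrow margin. The log2 fold change was 0.18 (95% interval 0.00068 to 0.36) and did not pass the threshold (adjusted p = 0.142).

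DDX20 and GEMIN4 form a further part of the complex. DDX20 (chr1:112297454-112318224), the DEAD-box RNA helicase also called GEMIN3, had 649, 635 and 598 normalized counts in the controls and 686, 603 and 638 with IRE1. Its log2 fold change was 0.03 (95% interval -0.12 to 0.18, adjusted p = 0.799), and its sign turned without IRE1-treated replicate 1, at -0.01. The gene shares exons with INKA2 and KCND3 on the other strand, and as the strand setting of the counting is not given in the sources used here, reads of these genes may be mixed.

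GEMIN4 (chr17:647661-657239), which is tied to the complex through DDX20, had 1031, 989 and 1060.1 normalized counts in the controls and 943, 1042 and 958 with IRE1. The groups overlapped. GEMIN4 had close to the control level of GEMIN5 in normalized counts but stayed at 95.5% of it, with a log2 fold change of -0.07 (95% interval -0.19 to 0.06, adjusted p = 0.482). It shares exons with DBIL5P on the other strand.

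GEMIN6, GEMIN7, GEMIN8 and STRAP encode the outer subunits: GEMIN6 and GEMIN7 bind each other, GEMIN8 links them to SMN, and STRAP, also named UNRIP, joins through GEMIN7. GEMIN6 (chr2:38978676-39012144) was the only one of the 9 members other than GEMIN5 that passed the threshold. It had 408, 435 and 368 normalized counts in the controls and 545, 508 and 460.4 with IRE1. All treated libraries were above all controls, and the log2 fold change was 0.32 (95% interval 0.13 to 0.50, adjusted p = 0.0161). Without IRE1-treated replicate 1 it was 0.26 (adjusted p = 0.0263). The call was lost with library size in place of TMM (0.24, adjusted p = 0.0581), and without control replicate 1 (adjusted p = 0.0611), control replicate 3 (adjusted p = 0.0830) or IRE1-treated replicate 2 (adjusted p = 0.0628).

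GEMIN7 (chr19:45582453-45594776) had 421, 399 and 439.7 normalized counts in the controls and 479, 498 and 463 with IRE1. The groups did not overlap, and the log2 fold change was 0.19 (95% interval 0.03 to 0.35, adjusted p = 0.0788). Its exons overlap those of MARK4 and PPP1R37 on the same strand, so its count is uncertain.

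GEMIN8 (chrX:14024845-14048012) had 172, 239.7 and 177 normalized counts in the controls and 231, 217 and 211 with IRE1. Control replicate 2 was higher than all treated libraries, the other controls lower. It was at 0.16 on the log2 scale (adjusted p = 0.383, standard error 0.125), and 4 pseudogenes are named after this gene.

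STRAP (chr12:16035321-16056412) had 1073, 1094 and 1079 normalized counts in the controls and 1270.3, 1152 and 1198 with IRE1. The treated libraries were all higher, with IRE1-treated replicate 1 the highest. The log2 fold change was 0.16 (95% interval 0.04 to 0.28, adjusted p = 0.0568), and 0.12 without that library (adjusted p = 0.127).

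Of the 9 members other than GEMIN5, 0 passed the threshold with a lower and 1 with a higher level. Among all tested genes 22.7% passed, 12.4% with a lower and 10.3% with a higher level, so the share among these members was close to the background for the higher level. At an unadjusted p under 0.05 in the edgeR fit, 0 of them were lower and 5 higher, beside 18.2% and 16.7% of all tested genes. By the same measure DESeq2 had 0 lower and 2 higher, limma 0 and 4, library size in place of TMM 1 and 1, and the fit with the length and GC trend described below removed 0 and 2. DESeq2 and limma called 0 lower after adjustment. The shares of all genes at an unadjusted p were not computed for these alternatives. The sign of the log2 fold change was positive for 8 of 9, with GEMIN4 as the exception. Over all tested genes it was negative for 49.2%. When library size replaced TMM it was positive for 7 of 9, and the median over all tested genes was -0.07. The groups did not overlap for 4 of the 9 members (GEMIN2, GEMIN6, GEMIN7 and STRAP), beside 39.1% of all tested genes. In these 4 the treated libraries were the higher ones, which 19.1% of all tested genes showed, whereas 20.0% showed the reverse. Without IRE1-treated replicate 1, SMN1 was at 0.19, GEMIN2 at 0.18, GEMIN4 at -0.04, GEMIN7 at 0.20 and GEMIN8 at 0.13, and none of these passed the threshold. The median over the 9 was 0.16, beside 0.0045 over all tested genes, and was 0.18 without IRE1-treated replicate 1. It was 0.07 once the dependence of every library on the length and GC content of the transcripts was fitted and taken out, which is called removal of the length and GC trend from here on.

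The place of GEMIN5 within the complex can also be read from the raw counts of each library, with no scaling between libraries. GEMIN5 held 20.7, 19.7 and 19.2% of the counts of the 10 members in the controls and 11.2, 11.1 and 11.3% with IRE1. The ratio of GEMIN5 to GEMIN4 counts went from 1.04 ± 0.0763 (SD, n = 3, controls) to 0.601 ± 0.0409 (SD, n = 3, IRE1), that is 58.0% of the control ratio. To DDX20 the ratio kept 54.2%, to STRAP 49.7%, to GEMIN2 48.7% and to SMN2 43.6%. In all 9 such ratios the highest treated value was below the lowest control value. As GEMIN5 was chosen for its loss, these ratios describe the size of the gap between it and each subunit.

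Per kilobase of the canonical transcript, STRAP had the highest control level of the members, with 577 normalized counts per kilobase. GEMIN4 (274), GEMIN7 (254), GEMIN2 (222), GEMIN5 (197) and DDX20 (174) followed in the controls. The lowest were GEMIN6 (109), SMN1 (96.8), SMN2 (56.8 to 71.4 in the single libraries) and GEMIN8 (62.3), where the values of the SMN genes are understated by the reads they share. Between neighbours in this order, GEMIN4 and GEMIN7, GEMIN6 and SMN1, and SMN2 and GEMIN8 overlapped between their control libraries, and the other neighbours did not. With IRE1 the level of GEMIN5 per kilobase was 108.8 ± 2.00 (SD, n = 3), and its rank went from 5 to 7 of 10.

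**Figure D2:**
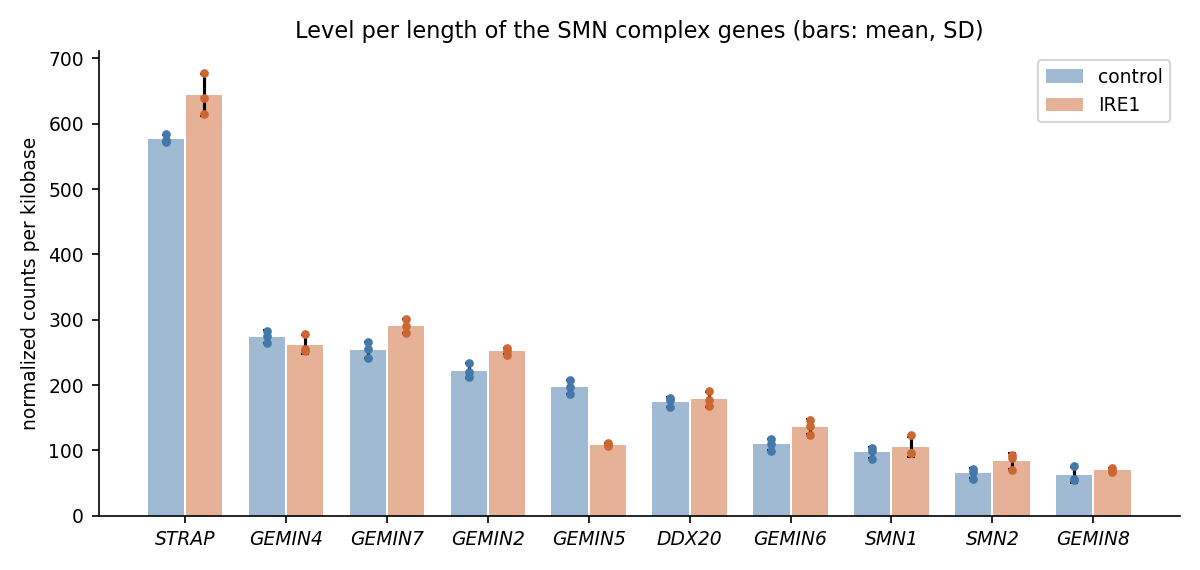
Normalized counts per kilobase of canonical transcript (y axis, from 0) for the 10 members, ordered by control mean; bars are means of 3 libraries, error bars the SD and dots the libraries. GEMIN5 has 197 in the controls, rank 5 of 10, and stands at 108.8 after IRE1, below DDX20 and GEMIN6.

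The level of a gene after IRE1 varied with the length of its transcript over all tested genes, which bears on GEMIN5, since 76.2% of the canonical coding transcripts are shorter than its 5404 bases. In 20 bins of genes of rising transcript length, the median log2 fold change went from 0.20 in the shortest to -0.25 in the longest. It was -0.09 in the bin that holds GEMIN5. With the length and GC trend removed, GEMIN5 was at -0.75, and at -0.71 when the canonical transcript set the length.

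The other members have longest transcripts of 1476 (GEMIN2) to 7416 bases (DDX20). With the trend removed they lay between -0.01 (GEMIN4) and 0.34 (GEMIN6, adjusted p = 0.0146). DDX20 was at 0.25 (adjusted p = 0.0314), but its canonical transcript is 3600 bases long, and with that length it was at 0.10 (adjusted p = 0.397).

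**Figure D3:**
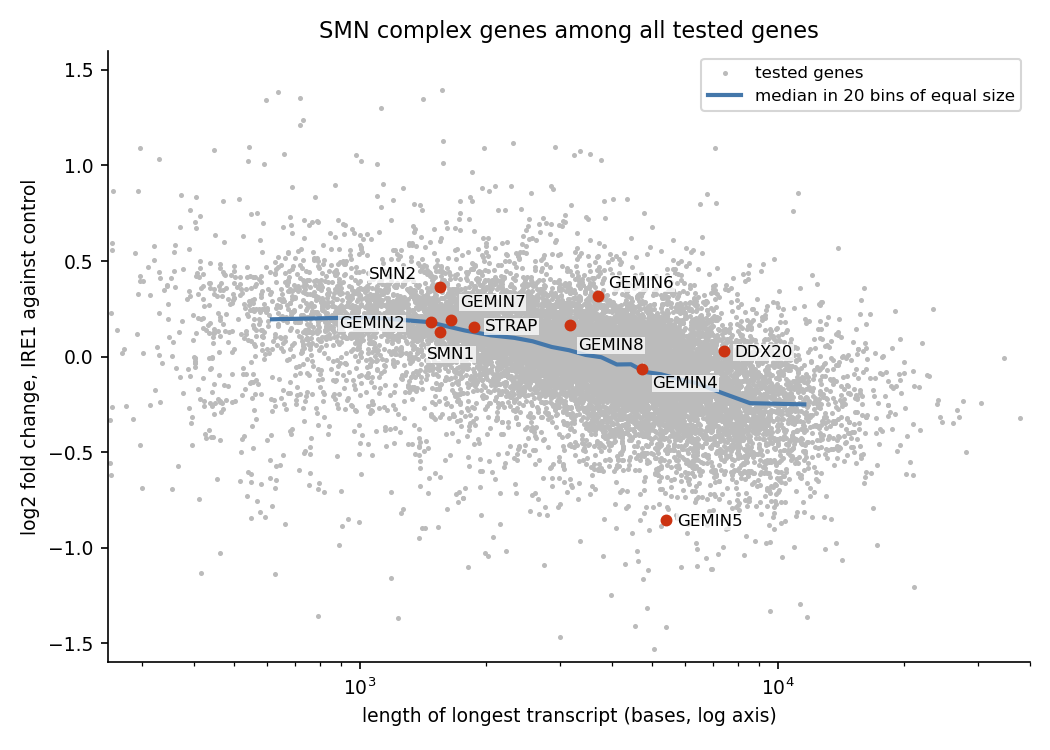
Log2 fold change of IRE1 against control (y axis) by length of the longest transcript (x axis, log scale) for the tested genes (grey dots), with the median in 20 bins of equal size (line) and the SMN complex genes (red dots). GEMIN5 lies at -0.86, where the median of its bin is -0.09, and the other members lie between -0.07 and 0.36; 6 genes fall outside the y axis and 24 outside the x axis.

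The IRE1 motif was counted in the same mRNAs. GEMIN5 held 14 CNGCAG matches, of which 9 were the exact CTGCAG, or 1.67 exact matches per kilobase. Over 12182 tested coding transcripts the median was 0.704 exact matches per kilobase, and 85.3% of them held at least 1 exact match and 96.8% a looser one. Among the members GEMIN8 came next for exact matches, with 1.27 per kilobase. For the looser motif GEMIN5 had 2.59 matches per kilobase, beside a median of 1.94. GEMIN4 (2.94), GEMIN8 (2.86) and STRAP (2.67) had more, and the other members fewer. In GEMIN5, 8 of the 9 exact matches lay past the middle of the transcript. The coding sequence held 7 of the 9 and the 3′ UTR 2.

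A single GEMIN5 match had the third base in a folded loop, that in the 3′ UTR of exon 28 printed above, at base 4860 of 5404 (89.9% of the length). Its loop had 7 bases, closed by 8 pairs, and the exact XBP1 match had a loop of 7 bases closed by 7 pairs. An exact motif in a loop was present in 35.5% of the coding transcripts and a looser one in 60.1%, so holding one does not set GEMIN5 apart.

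Members that did not fall held such matches as well. GEMIN4 had 11 CNGCAG matches, 3 of them in a loop, among them the exact match at base 3335 of 3744 printed above. The loop of that match had 5 bases, closed by 5 pairs, and the C and T that open the motif were paired. In the GEMIN5 match and the exact XBP1 match the whole motif lay in the loop. The CCGCAG match of XBP1 was partly paired too. SMN1 and SMN2 each had the exact motif once, in the coding sequence of exon 3 at base 271 of the transcript, in a loop of 10 bases. GEMIN2 and STRAP had 1 looser match in a loop each. GEMIN8 had 9 looser matches, 4 of them exact, and GEMIN7 had 4 and GEMIN6 3 looser matches, with none in a loop. DDX20 had 4 looser matches, none exact and none in a loop. A match says only that these letters are present and fold so on their own, and whether any of these places was cut was not tested, since exon counts were not analysed here.

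**Figure D4:**
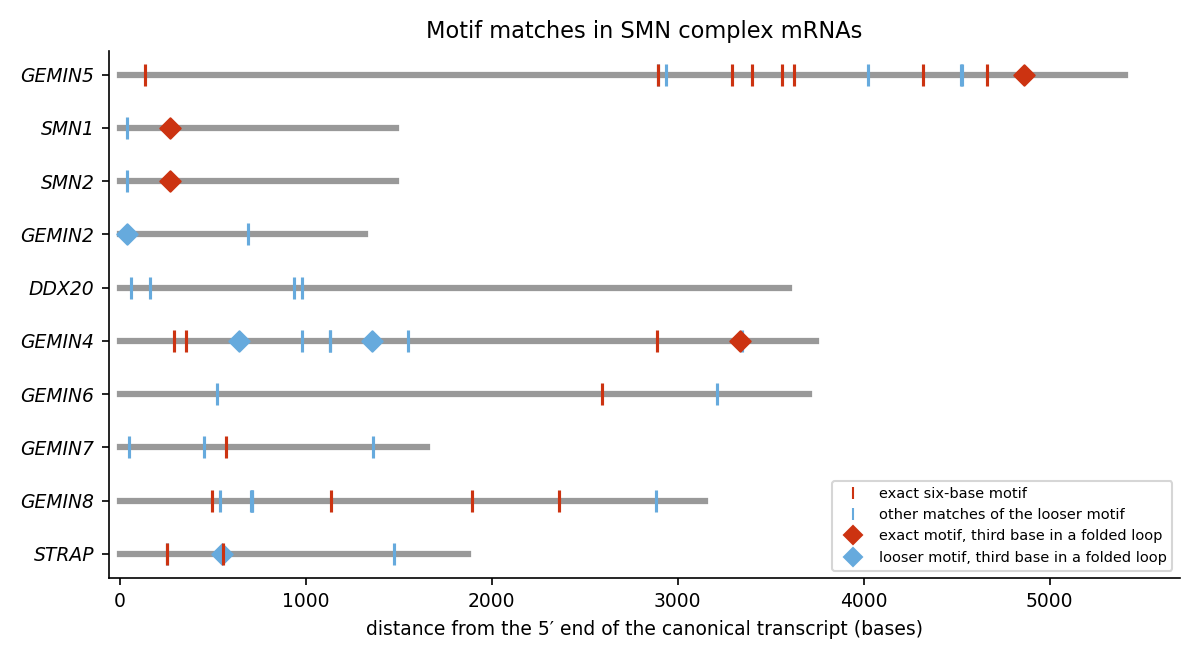
Positions of the motif matches (marks) along the canonical transcripts of the 10 members (grey lines), with the distance from the 5′ end in bases on the x axis; red marks are exact matches, blue marks the looser ones, and diamonds those with the third base in a folded loop. GEMIN5 has 14 matches, most of them past its middle, with 1 diamond at base 4860.

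The genes whose pattern over the 6 libraries was nearest to that of GEMIN5, among 10283 genes whose mean reached 100 normalized counts and which are not members, were found by the root mean square difference of centred log2 values. They were LATS1, a kinase of the Hippo pathway (difference 0.0454), KMT2C, a histone methyltransferase (0.0557), IKZF3, a lymphoid transcription factor (0.0884), KCNA2, a potassium channel (0.0907) and TNRC6C, a partner of Argonaute proteins (0.0941). They kept 55.3, 57.9, 56.6, 56.0 and 59.0% of the control mean, which follows from their being picked for nearness to GEMIN5. Their longest transcripts of 7362 to 16860 bases were all longer than that of GEMIN5. With the length and GC trend removed they were at -0.65, -0.45, -0.57, -0.56 and -0.52 in the same order, beside -0.75 for GEMIN5.

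Around the SMN complex stand the proteins it loads and the factors that prepare them, taken here as 34 genes in 6 lists, all of which were tested. Of these, 16 passed the threshold with a higher and 1 with a lower level, beside 10.3% and 12.4% of all tested genes. The median of the 34 was 0.22, and 25 lay above the controls without overlap, as did 19.1% of all tested genes. Without IRE1-treated replicate 1 the counts were also 16 and 1. With the length and GC trend removed they were 12 and 0, and 12 and 1 when the canonical transcript set the length. With library size only they were 12 and 2.

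The Sm proteins form the ring that the SMN complex closes on the small nuclear RNA. Of their 7 genes, 6 passed the threshold with a higher level, beside 10.3% of all tested genes. All 7 lay above the controls without overlap, beside 19.1%. The median was 0.33, and the length bin that holds their median length of 1560 bases was at 0.18. With the length and GC trend removed 4 passed as higher, beside 1274 of 14398 tested genes. With a block for the replicate number added to this, 3 passed, beside 1093 of 14398. SNRPD1 had 1556, 1587 and 1579.9 normalized counts in the controls and 2748, 2061 and 2056 with IRE1, a log2 fold change of 0.54 (adjusted p = 6.17e-04). IRE1-treated replicate 1 was well above the other treated libraries, and without it the value was 0.39. SNRPF was at 0.49 (adjusted p = 5.50e-04), SNRPD2 at 0.37 (adjusted p = 0.00422) and SNRPG at 0.33 (adjusted p = 0.00673). Pseudogenes are named after SNRPG (20), SNRPF (4) and SNRPD2 (2), so that their counts are uncertain, and the calls of SNRPD2 and SNRPG were lost with the trend removed (adjusted p = 0.0609 and 0.0951). When the canonical transcript set the length, SNRPD2 passed (adjusted p = 0.0406) and SNRPG did not (adjusted p = 0.134).

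The ring of the LSM2 to LSM8 proteins sits on U6 RNA and is not loaded by the SMN complex. All 7 of these genes passed with a higher relative level, beside 10.3% of all tested genes. In all 7 the treated libraries lay above the controls without overlap, beside 19.1% of all tested genes. The median was 0.31, and the length bin that holds their median length of 2214 bases was at 0.10. LSM8 was at 0.38 (adjusted p = 0.00212), LSM3 at 0.36 (adjusted p = 0.00261), LSM7 at 0.34 (adjusted p = 4.36e-04) and LSM5 at 0.31 (adjusted p = 0.0198). With the trend removed 5 of the 7 passed, and 4 passed with library size only or without control replicate 2. With the trend removed and a block for the replicate number, 3 passed. LSM5 lost its call in that fit (adjusted p = 0.0547) and with library size only (adjusted p = 0.0679). It was also lost without control replicate 2 (adjusted p = 0.0727) and without control replicate 3 (adjusted p = 0.0812). LSM10 and LSM11 stand for a pair of Sm proteins in the ring of U7 RNA, which the SMN complex also builds. Neither passed: LSM10 had 0.15 (adjusted p = 0.123), 1 of the 2 genes had an unadjusted p under 0.05, and DESeq2 and limma called 0. Without IRE1-treated replicate 3, LSM10 passed at 0.23 (adjusted p = 0.00587), in a fit where 4312 of 14553 genes passed in either direction.

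The methylosome methylates Sm proteins before they reach the SMN complex. Of its 5 genes 1 passed the threshold as higher, beside 10.3% of all tested genes. It was CLNS1A, whose protein pICln holds the Sm proteins apart (0.28, adjusted p = 0.00337). All 5 had a positive log2 fold change, with a median of 0.16. Of the 5, 4 lay above the controls without overlap, beside 19.1% of all tested genes. Without IRE1-treated replicate 3, 4 of the 5 passed as higher. Among 5 genes of proteins specific to the U1 and U2 particles, SNRPA1 (0.32, adjusted p = 6.19e-04) and SNRPC (0.23, adjusted p = 0.00527) passed as higher. All 5 lay above the controls without overlap. All 5 passed as higher without IRE1-treated replicate 3, and 3 without IRE1-treated replicate 2. Over all genes, in either direction, 4312 of 14553 passed without replicate 3 and 1982 of 14668 without replicate 2. With all libraries 3270 of 14398 passed, so the larger counts without replicate 3 go with more calls over all genes. SNRPA1 shares exons with PCSK6, and 18 pseudogenes are named after SNRPC, which lost its call with the trend removed (adjusted p = 0.360).

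The cap binding, export, cap hypermethylation and import factors bring the small nuclear RNA out of the nucleus and the finished particle back. Of these 8 genes 1 passed as lower and 0 as higher, beside 12.4% and 10.3% of all tested genes. Their median was -0.06. XPO1, the exportin that carries the RNA out, had 2351, 2473 and 2300.0 normalized counts in the controls and 1619.9, 1840.2 and 2081 with IRE1. All treated libraries were below all controls, with a wide spread, and the log2 fold change was -0.36 (adjusted p = 0.00241). Its longest transcript has 8930 bases, and with the length and GC trend removed it was at -0.11 (adjusted p = 0.141). Its canonical transcript has 4988 bases, and with that length XPO1 was at -0.20 and kept its call (adjusted p = 0.0162). At an unadjusted p under 0.05, 1 gene of this list was higher and 1 lower, beside 16.7% and 18.2% of all tested genes. With library size only 0 were higher and 4 lower at that p, and 2 were called lower after adjustment.

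**Figure D5:**
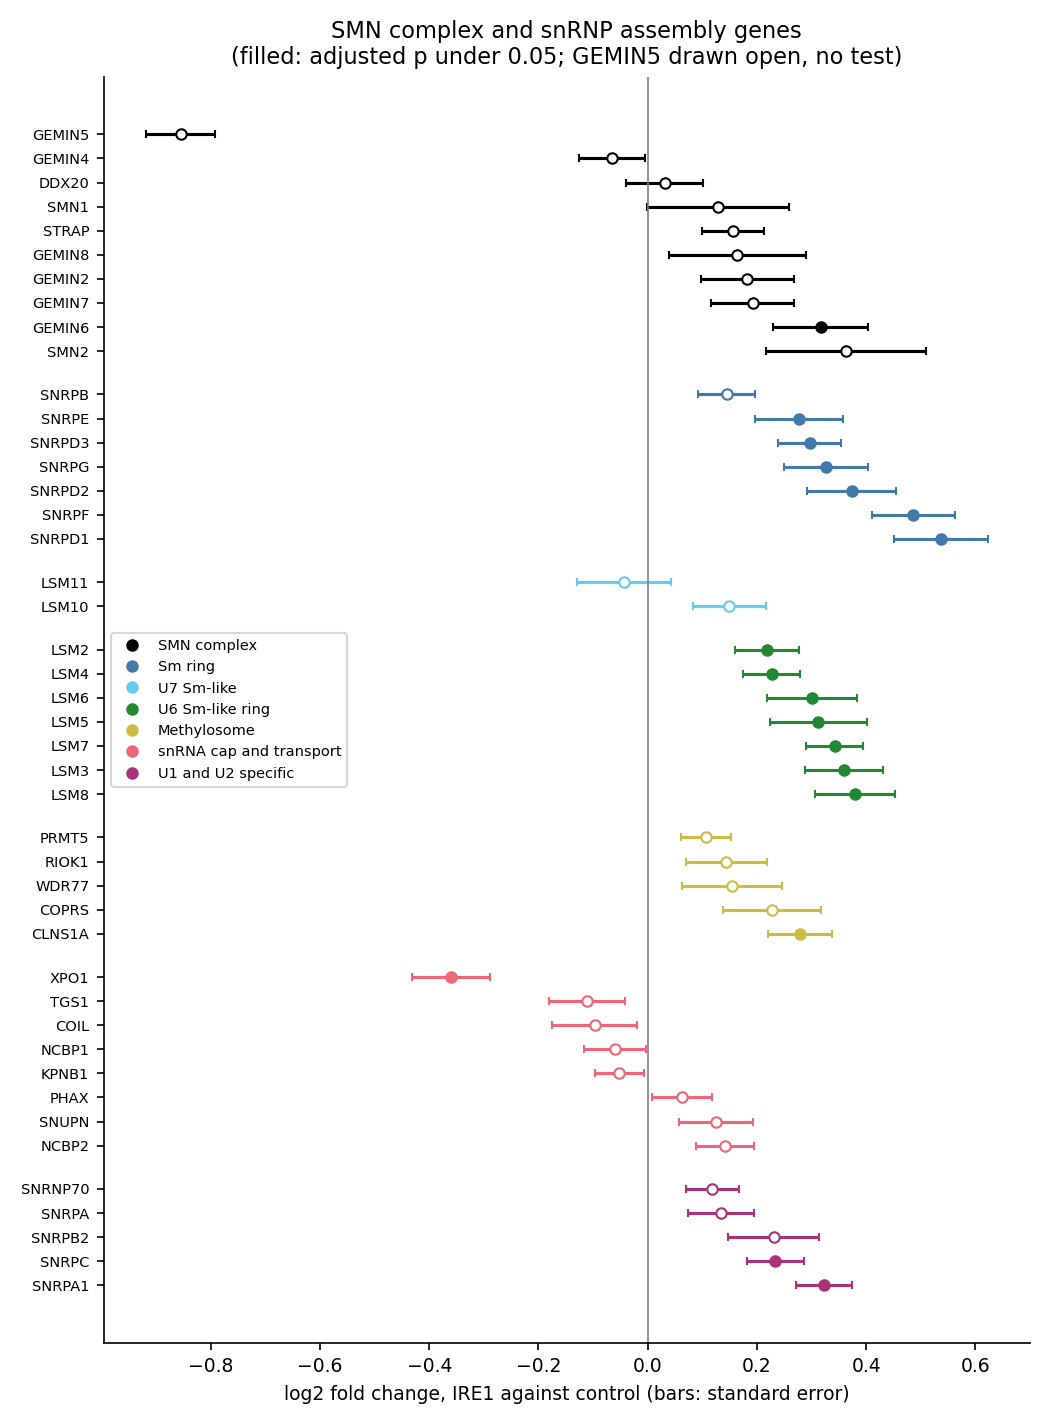
Log2 fold change of IRE1 against control (x axis, bars are standard errors) for the SMN complex genes and the 34 genes of snRNP assembly (y axis, grouped by colour); filled dots have an adjusted p under 0.05 from edgeR, and GEMIN5 is drawn open because no test is read for a gene chosen by its loss. GEMIN5 stands alone at -0.86, the next lowest gene is XPO1 at -0.36, and the genes of both rings lie at 0.14 to 0.54.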

How the data were processed

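The authors used Cutadapt 1.12 for trimming, STAR 2.5.3a for alignment to GRCh37 with Ensembl release 87 as annotation, and HTSeq 0.6.1p1 to count genes (versions from the submitters' processing notes). The strand and overlap settings are not given in the sources used here. They deposited raw counts for each of the 6 libraries. They also deposited a CPM table of 12558 genes, normalized by the authors, which was used only in an alternative. The summary lines of the counts that name no gene (21.4 to 23.2% of the totals) were left out.

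Counts were fitted with edgeR 4.0.16 (R 4.3.3) after filterByExpr, with TMM scaling, the quasi-likelihood test, no covariates and Benjamini-Hochberg adjustment over 14398 genes. All adjusted p-values come from this test unless another is named. Alternatives were DESeq2 1.42.0, library size, upper quartile, no filter, at least 10 counts in every library, limma 3.58.1 on log2(CPM + 1), a block for the replicate number, removal of a loess trend (span 0.5) on the length and GC content of the longest or canonical transcript, fitted per library, this trend together with the block, SMN1 and SMN2 summed, and each library left out. The fitting code was tested on simulated data. GENCODE release 44 on GRCh37 gave positions, lengths and sequences. Motif windows of 36 bases were folded with ViennaRNA 2.7.2. Counting errors are the reciprocal square root of the count and cover counting error only.

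The members and lists were chosen with earlier results of these data known. The genes named are all members, from each list at most 4 genes past the threshold by absolute log2 fold change or, where a list has none, the 1 with the largest, the substrates XBP1 and BLOC1S1, and the 5 genes nearest to GEMIN5.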

Additional observations from a re-analysis of the deposited data

How the results depend on the processing

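GEMIN5 kept its direction in all 17 alternatives, and lay from -0.89 to -0.82 when a library was left out. Its lowest value was -0.93, with library size only. Its highest was -0.71, with the length and GC trend of the canonical transcripts removed, an alternative added after seeing the data. As GEMIN5 was chosen for its loss in these same libraries, these values are a description and add no support. Among the other 9 members, 1 passed the threshold (GEMIN6). With library size only 0 passed, and with the length and GC trend removed, alone or with the replicate block, 2 passed (GEMIN6 and DDX20). With a library left out 0 to 2 passed: 0 without control replicate 1, control replicate 3 or IRE1-treated replicate 2, 2 without IRE1-treated replicate 1 (GEMIN6 and SMN2), and 2 without IRE1-treated replicate 3 (GEMIN6 and STRAP). The sign turned for DDX20 with library size only (-0.0445). With a library left out DDX20 lay at -0.0140 (IRE1-treated replicate 1) to 0.0745, with -0.0015 for control replicate 3, and SMN1 at -0.00034 (IRE1-treated replicate 3) to 0.192. It also turned for LSM10 with the trend removed (-0.0199), with the trend and replicate block (-0.0202) and with the canonical trend (-0.0093).

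Over all genes, 3270 passed (1781 lower, 1489 higher). With library size only the split was 2596 lower and 683 higher. With the length and GC trend removed 2007 passed (733 lower, 1274 higher), with this and the replicate block 1704, with the canonical trend 1590, and with a library left out 1630 to 4312. Of the 34 assembly genes 17 passed, 9 with the trend and replicate block, and 13 to 24 with a library left out. Same-numbered samples did not deviate together (r over genes of -0.133, -0.114 and -0.332). The deviations were centred within each group of 3, so these values cannot tell whether same-numbered samples shared a preparation. With the replicate block alone 2613 genes, 1 other member and 17 assembly genes passed. The causes were not tested. Depth limits SMN2 most, with a counting error of at least 8.42% in each library, and 3 libraries a group limit every comparison.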
